A study of Mus musculus with 9 samples.

Results

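Livers of germ-free mice given a gut microbiota (ConvD) were compared with livers of mice that stayed germ-free (GF), 3 against 3 of the 9 livers of the series, across all 20325 genes of the tables. All animals were male C57BL/6J mice on chow. The GF mice had no supplement. The ConvD mice were born germ-free and received cecal contents of conventionally raised mice in 1 oral gavage, given at 15 weeks of age and followed by 4 weeks of colonisation, so the group models a microbiota acquired in adult life and not one present from birth. The labels give 2 ages for the same livers, 14 weeks in the design text and 19 weeks at dissection in the protocol. Cages were shared only by mice of 1 colonisation status, so cage and group cannot be told apart, and the time of day of dissection is not given in the sources used here. The remaining 3 livers, from germ-free mice that drank water with short-chain fatty acids, entered the fit only to estimate the spread between animals.

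Blood from the gut reaches the liver through the portal vein, carrying nutrients, microbial products such as lipopolysaccharide and flagellin, and metabolites that bacteria make from food and bile acids. Hepatocytes, which make up most of the tissue, handle these molecules and secrete most plasma proteins through the endoplasmic reticulum. Kupffer cells, the resident macrophages of the sinusoids, clear microbial material from that blood. Many hepatic transcripts also follow the circadian clock and the cycle of feeding and fasting.

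Polyadenylated RNA was sequenced to 18448840 to 21627696 expected counts per library in these 6 livers, and 12037 genes had enough counts to be tested. Over the 500 genes of highest variance, the first principal component (48.4% of the variance) placed the GF livers at -13.5, -13.4 and -10.3 and the ConvD livers at 10.9, 15.3 and 10.8. Hepatocyte markers were abundant in every liver, with summed levels of their 18 genes from 121114 to 148548 TPM (transcripts scaled for gene length and depth), and Alb, encoding albumin, differed by 0.01 on the log2 scale (adjusted p = 0.972). No animal is named in the labels of the 3 libraries of a group, so p-values here rest on how much these libraries vary, which may be technical.

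Genes were called changed at an adjusted p under 0.05 in edgeR's quasi-likelihood test. By this rule 1544 genes (12.8% of those tested) differed between ConvD and GF livers, 714 of them higher in ConvD (5.93%) and 830 lower (6.9%). The 3 values of one group lay wholly apart from the 3 of the other in 3804 genes (31.6%), of which 1895 lay above and 1909 below. These shares are the background against which the gene groups below are to be read. Among called genes the groups lay apart in 698 of the 714 increases and 824 of the 830 decreases. Separate groups in a called gene therefore describe it and add little to its call. Of the 1544 called genes 245 (15.9%) belong to any of the 68 gene lists used here, as do 1383 of the 12037 tested genes. Most called genes thus lie outside the lists, as do most tested genes, and are not described by the processes named.

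Increases and decreases had different shapes. The median called increase was 1.54-fold, and 117 of 714 (16.4%) reached 2-fold. Decreases were smaller: their median was 1.33-fold, 43 of 830 (5.18%) reached 2-fold, and 637 (76.7%) stayed under 1.5-fold. Called decreases were also more frequent among well-expressed genes. With genes ordered by TPM into 5 equal groups, 4.94% were called higher and 1.87% lower in the lowest group, and 6.23% higher and 10.3% lower in group 4. The median called decrease was -0.81 on the log2 scale in the lowest group and -0.36 in group 4. How far small decreases at low level escaped the call was not tested. The small decreases depended on the scaling: with library totals in place of TMM factors, the median of all genes moved from 0.00 to 0.08 on the log2 scale, and 712 of the 714 increases but 390 of the 830 decreases were still called. None of the 1544 changed sign. The split of higher against lower calls was 714 to 830 with TMM, 1058 to 543 with upper-quartile factors and 1061 to 391 with library totals.

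**Figure D1:**
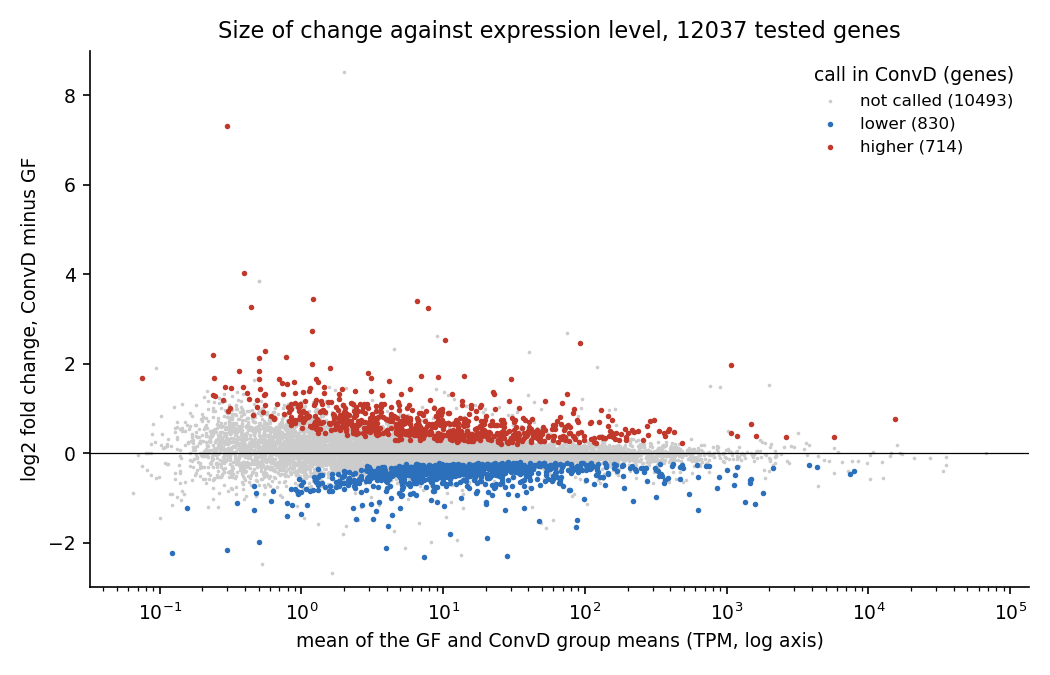
Log2 fold change of each tested gene (ConvD minus GF, vertical axis) against the mean of the 2 group means in TPM (horizontal log axis), with genes called higher in red, lower in blue and not called in grey, 1 point per gene. The called increases reach further from 0 than the called decreases. The highest red point is Ltf, which has no count in any GF library, so its fitted value depends on the prior count and is not a bound.

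In TPM, the share held by the called genes changed by 2.19 percentage points for the higher and -2.02 for the lower. In counts scaled to library size (CPM) the changes were 1.96 and -3.01. The 714 higher genes held 3.41%, 4.03% and 3.83% of TPM in the GF livers and 6.41%, 5.89% and 5.54% in the ConvD livers. The 830 lower genes held 7.73%, 7.92% and 8.82% in GF and 6.33%, 5.94% and 6.14% in ConvD. Since these genes were selected for their change, the shares describe its weight and test nothing. The largest single gains in TPM were those of the pheromone carrier Mup20 (8824 TPM), of Ttr, which carries thyroid hormone and retinol-binding protein in plasma (1667 TPM), and of the drug-metabolising cytochrome Cyp3a11 (1296 TPM). The largest losses were in 3 hepatocyte genes: Ahsg, the plasma protein fetuin-A, fell by 2039 TPM, the cytochrome Cyp2e1 fell by 1864 TPM, and Tat, tyrosine aminotransferase, fell by 1134 TPM. Mup20 belongs to a family of near-identical genes between which the authors' counting divides reads, so its own value is uncertain. Its gain of 8824 TPM is a large part of the gain in share of the higher genes above, and the share without it was not computed. The family as a whole did not rise with it: its 20 genes summed to 247097, 221658 and 158683 TPM in GF and 161771, 193191 and 230511 TPM in ConvD livers. Of 20 tested major urinary protein genes it was the 1 called.

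Decreases were more frequent in long genes. With tested genes ordered by length into 10 equal groups, in the shortest group 7.14% were called higher and 0.996% lower, and in the longest group, from 5945 to 22489 bases, 2.24% were higher and 18.7% lower. The median log2 fold change went from 0.04 in the shortest group to -0.13 in the longest. The median gene length was 2299 bases for higher genes, 4234 bases for lower genes and 2750 bases for genes that were not called. In the longest group the median gene of the GF livers lay 0.08, 0.08 and 0.03 above the mean of the 6 livers on the log2 scale, and the ConvD livers -0.05, -0.10 and -0.05 from it, so GF replicate 3 lay nearest to the ConvD livers. A fit that takes a trend with length in each liver as an offset, chosen after seeing the data, called 1337 genes, and kept 587 of the 714 increases (82.2%) and 591 of the 830 decreases (71.2%). No RNA integrity value was at hand, and the part that RNA quality has in the trend was not tested. Of the called genes printed in what follows, this fit did not call Abca1, Blvra, C1qb, Ep300, F5, Gsk3b, Hal, Igf1, Inhbe, Insr, Mll3, Mrpl22, Pdpk1, Plin3, Selk, Sqstm1 and Tef.

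**Figure D2:**
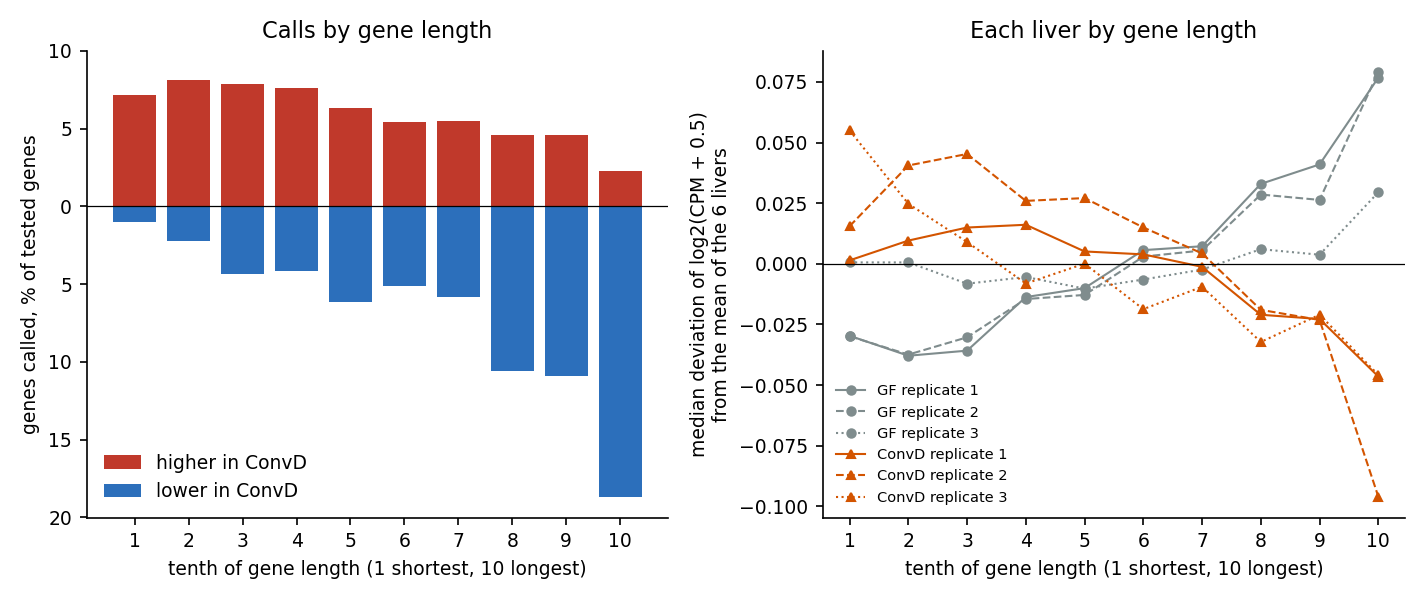
Left, share of tested genes called higher (red, up) or lower (blue, down) in ConvD livers in 10 equal groups by gene length; right, median deviation of log2(CPM + 0.5) from the mean of the 6 livers in each group, 1 line per liver. Calls of lower expression reach 18.7% in the longest group against 0.996% in the shortest. In the right panel the 3 GF livers lie above the 3 ConvD livers in the longest group, while GF replicate 3 lies beside ConvD replicate 1 in the shortest.

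Interferon-stimulated genes were among the most frequently raised groups. Interferons are antiviral cytokines whose signal acts on promoters carrying the interferon-stimulated response element. Of 38 tested genes induced mainly by type I interferon, 22 rose and 0 fell, with a median log2 fold change of 0.63 against 0.00 over all tested genes. Each of the 9 fits without 1 liver called between 15 and 22 of them, and the length-offset fit called 20. The increases were of similar moderate size, from 1.23-fold for Parp12 to 2.52-fold for Oas1g.

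The 300 bases around the start site (250 before and 50 after) were searched on both strands for GAAANNGAA, the core of the response element. Promoters from RefSeq (GRCm38.p6) were matched for 9621 of the tested genes. The core was present in 15 of 26 interferon-stimulated genes with a promoter (57.7%) and in 8.78% of all. Among the called members it was present in 6 of 16 (37.5%), so most called members had no match in this window. These 120-base windows before the start sites of the 3 called members with a match before the start site and the smallest adjusted p, Ifit3 (chr19:34583371-34583490, + strand), Isg15 (chr4:156200821-156200940, - strand) and Rsad2 (chr12:26456508-26456627, - strand), are written 5′ to 3′ along the gene, with matches to the core in capitals.
Ifit3: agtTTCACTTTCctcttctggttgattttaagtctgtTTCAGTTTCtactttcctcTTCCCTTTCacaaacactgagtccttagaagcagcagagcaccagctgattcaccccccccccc
Isg15: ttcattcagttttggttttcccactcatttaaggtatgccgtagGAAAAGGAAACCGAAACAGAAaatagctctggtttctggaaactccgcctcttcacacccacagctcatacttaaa
Rsad2: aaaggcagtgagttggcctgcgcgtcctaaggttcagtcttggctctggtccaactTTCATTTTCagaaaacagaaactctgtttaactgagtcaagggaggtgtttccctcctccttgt
Ifit3 held 3 separate matches, Isg15 3 overlapping ones and Rsad2 1 in its window. A match is a description of the letters and not a site shown to be bound.

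Ifit3, which binds viral RNA together with its relatives, measured 13.5, 13.4 and 12.3 CPM (counts scaled to library size) in the GF livers and 19.8, 23.9 and 22.6 CPM in the ConvD livers (0.76 ± 0.12 SE on the log2 scale, adjusted p = 0.00134, edgeR). Isg15, a ubiquitin-like modifier, stood at 6.30, 6.38 and 6.34 CPM in GF and 9.17, 11.7 and 11.2 CPM in ConvD livers (0.75 ± 0.12 SE on the log2 scale, adjusted p = 0.00152). For both genes the GF livers were tightly grouped, every ConvD liver lay above them, and ConvD replicate 1 was the lowest of its group. Rtp4, a chaperone of receptors with antiviral activity, rose 1.88-fold (adjusted p = 0.00152). The regulators Irf7 (1.61-fold) and Irf9 (1.40-fold) and the feedback protease Usp18 (1.59-fold) rose as well.

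Of 22 tested genes that respond mainly to interferon-gamma, among them the interferon-inducible GTPases that attack intracellular microbes, 2 rose and 0 fell, although 21 had a log2 fold change above 0 and the median was 0.57. Irgm2 measured 48.1, 53.1 and 48.3 CPM in GF and 68.6, 138 and 96.3 CPM in ConvD livers (1.02 ± 0.23 SE on the log2 scale, adjusted p = 0.0285), and Gbp4 rose 2.18-fold (adjusted p = 0.0342). The ConvD livers differed widely among themselves here, with replicate 2 highest in both genes. Leaving out 1 liver gave 0 to 14 calls in this list, with 14 without ConvD replicate 1 and 0 without ConvD replicate 3 or any 1 GF liver. DESeq2 called 8 members higher and the length-offset fit 3. Igtp, at 43.2, 112 and 70.9 CPM in ConvD against 29.1 to 39.1 CPM in GF, did not pass (adjusted p = 0.0727).

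Antigen presentation on class I molecules rose in 6 and fell in 0 of 20 tested genes (median log2 fold change 0.22, with 5 called in the length-offset fit). Fits without 1 liver called 3 to 6 of them higher, with 3 without GF replicate 1. The fit without ConvD replicate 3 also called 1 lower. The immunoproteasome is a proteasome variant whose subunits favour peptides for class I loading. Its subunit gene Psmb9 stood at 10.2, 11.6 and 11.5 CPM in GF and 16.0, 19.2 and 20.9 CPM in ConvD livers (0.75 ± 0.11 SE on the log2 scale, adjusted p = 0.00109). The peptide transporter gene Tap1 rose 1.62-fold, the proteasome activator gene Psme1 1.28-fold, the immunoproteasome gene Psmb8 1.32-fold and Nlrc5, the class I transactivator, 1.42-fold. Of 31 constitutive proteasome subunits 4 rose and 0 fell, Psma5 with the smallest adjusted p (1.30-fold, adjusted p = 0.00851). Library totals in place of TMM factors raised this to 9, and the length-offset fit lowered it to 2. It was 1 without GF replicate 1 or ConvD replicate 1, and 2 without ConvD replicate 2. Class II genes gave 1 call in 9, H2-Ob (2.54-fold, adjusted p = 0.0218), and the invariant chain gene Cd74 measured 88.1, 85.7 and 120 CPM in GF and 99.9, 131 and 152 CPM in ConvD livers, which overlap (adjusted p = 0.283).

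Among 29 tested receptors and adaptors that sense bacteria, 4 rose and 0 fell (median log2 fold change 0.35). Tifa, the adaptor through which cells respond to a bacterial heptose metabolite, measured 8.20, 6.68 and 7.89 CPM in GF and 11.8, 18.7 and 15.7 CPM in ConvD livers (1.02 ± 0.15 SE on the log2 scale, adjusted p = 0.00116). Each ConvD liver exceeded each GF liver, and the 3 ConvD values were spread over a wider range. Tlr5, the flagellin receptor, rose 1.57-fold (adjusted p = 0.00289), Naip2, an inflammasome sensor of bacterial secretion systems, 1.53-fold (adjusted p = 0.00922) and Nod1, a sensor of peptidoglycan fragments, 1.34-fold (adjusted p = 0.0468, with overlapping groups). Tlr4, the lipopolysaccharide receptor, stood at 1.90 to 2.38 CPM in GF and 2.04 to 3.45 CPM in ConvD livers and did not pass (adjusted p = 0.512).

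Of 17 genes of the NF-kB response 2 rose, Birc3 (1.35-fold) and Tnfaip2 (1.34-fold), and 1 fell, Nfkbia, the inhibitor of NF-kB (log2 change -0.45, adjusted p = 0.0195). Among 16 chemokine genes Cxcl14 rose 2.17-fold (adjusted p = 0.0294) and Cxcl12, which retains leukocyte precursors and stem cells in tissue, fell from 295, 283 and 284 CPM to 198, 207 and 220 CPM (-0.46 ± 0.07 SE on the log2 scale, adjusted p = 0.00134). Acute phase proteins, which hepatocytes secrete under interleukin-6, rose in 3 and fell in 2 of 26 cases. The risers were Lcn2 (3.27-fold), Apcs, serum amyloid P (1.51-fold, adjusted p = 0.00194), and Orm1 (1.31-fold). C-reactive protein, Crp, fell (log2 change -0.41, adjusted p = 0.00645). Il6ra, encoding the interleukin-6 receptor itself, measured 60.2, 57.9 and 57.4 CPM in GF and 20.4, 26.6 and 32.6 CPM in ConvD livers (-1.14 ± 0.14 SE on the log2 scale, adjusted p = 0.000753). Of 34 complement and coagulation genes, 0 rose and 1 fell, the clotting factor gene F5 (log2 change -0.45, adjusted p = 0.0281; 0.0682 in the length-offset fit).

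Of 15 markers of macrophages in general 11 rose and 0 fell (median log2 fold change 0.58), and of 13 markers of resident Kupffer cells 5 rose and 0 fell (median 0.63). Without 1 liver the first count was 7 to 12, at 7 without GF replicate 1 or 2 or ConvD replicate 2 or 3. The Kupffer count was 2 to 8, with 2 without ConvD replicate 2 or 3, 3 without GF replicate 2 and 8 without ConvD replicate 1. The length-offset fit called 10 and 5. In whole tissue, more cells of a type and more RNA per cell cannot be told apart. Mpeg1, a pore-forming protein of phagocytes, measured 67.4, 79.1 and 83.3 CPM in GF and 115, 142 and 130 CPM in ConvD livers (0.75 ± 0.11 SE on the log2 scale, adjusted p = 0.00178). Fcer1g, the signalling chain of Fc receptors, rose 1.72-fold and Aif1 1.79-fold, while the complement genes C1qa, C1qb and C1qc rose 1.44-, 1.5- and 1.59-fold. Called members ranged from 1.27-fold (Sirpa) to 1.79-fold (Aif1).

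Of the Kupffer cell markers, Slc40a1, the iron exporter ferroportin, stood at 98.8, 93.6 and 113 CPM in GF and 153, 155 and 165 CPM in ConvD livers (0.63 ± 0.07 SE on the log2 scale, adjusted p = 0.000238). Clec4f, a lectin restricted to Kupffer cells among liver macrophages, rose 1.45-fold (adjusted p = 0.0161), Id3 1.69-fold and Cd5l 1.97-fold. Marco, a scavenger receptor for bacteria, measured 7.67, 34.4 and 15.4 CPM in ConvD against 2.39, 3.46 and 3.47 CPM in GF livers. The groups lie apart, with a wide spread among the ConvD livers, and Marco did not pass (adjusted p = 0.0865). Timd4 and Cd163, also resident markers, had overlapping groups (adjusted p = 0.275 and 0.701). Among 11 markers of monocytes and recently recruited macrophages 1 rose, Plac8 (2.11-fold, adjusted p = 0.00116), and the monocyte receptor gene Ccr2 measured 0.543, 0.940 and 1.46 CPM in GF and 1.46, 1.66 and 1.91 CPM in ConvD livers (adjusted p = 0.111). Yet 10 of the 11 had a log2 fold change above 0, and the median was 0.57, near those of the 2 macrophage lists. The summed TPM of this list averaged 325 in GF and 311 in ConvD livers. Of 30 lysosomal genes 3 rose, namely the protease genes Lgmn (1.46-fold) and Ctsc (1.42-fold) and Laptm5 (1.43-fold), a membrane protein of blood cell lysosomes. Without GF replicate 2 or ConvD replicate 2, 1 of the 30 was called higher, and the length-offset fit added 1 lower.

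Neutrophil markers were low in GF livers and higher in ConvD livers. Of 8 tested markers 6 rose and 0 fell, in the fit of all livers and in each of the 9 fits without 1 liver. Some of them, such as S100a8 and Ltf, lay too low in GF livers to pass the count filter there. The share of tested markers that rose is thus favoured by the filter and is a description only. One of them, Lcn2, is also an acute phase gene. S100a8, a subunit of the antimicrobial protein calprotectin, measured 0.163, 0.198 and 0.282 CPM in GF and 2.48, 2.59 and 1.97 CPM in ConvD livers (3.40 ± 0.33 SE on the log2 scale, adjusted p = 7.28e-05). Its partner S100a9 stood at 0.163, 0.396 and 0.563 CPM against 2.96, 5.13 and 2.98 CPM (3.25 ± 0.38 SE on the log2 scale, adjusted p = 0.000257). The granule protein gene Ltf was without a count in all GF libraries and stood at 0.922, 1.46 and 0.638 CPM in ConvD livers (adjusted p = 0.00182). Of the 5 markers with too few counts to be tested, Camp had 0 counts in every GF library and 11, 7 and 7 in the ConvD libraries, and Mpo had 0 in every GF library and 3, 8 and 2 in the ConvD libraries. Cxcr2, the chemokine receptor of neutrophils, went the other way without passing, at 5.60, 4.80 and 6.71 CPM in GF and 4.27, 4.25 and 4.41 CPM in ConvD livers (adjusted p = 0.154).

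Marker sums of other cells were compared in the same way. The summed TPM of the 13 neutrophil markers was 8.13 to 16.0 in GF and 40.5 to 63.3 in ConvD livers. For the 12 markers of red cells and platelets it was 1297, 802 and 1073 in GF and 1119, 4688 and 2877 in ConvD livers. Of its 7 tested members edgeR called 0 (3 at an unadjusted p under 0.05) and DESeq2 called 3 higher. The hemoglobin gene Hba-a1 stood at 146, 717 and 363 CPM in ConvD against 124 to 186 CPM in GF livers (adjusted p = 0.157). ConvD replicate 2, with the most hemoglobin, also had the highest sum of macrophage and neutrophil markers. ConvD replicate 1, whose red cell sum lay within the GF range, had a neutrophil sum of 49.9 TPM and a macrophage sum of 470 TPM. The GF livers reached at most 16.0 and 427 TPM. These are single livers, and the part that blood left in the tissue has in the immune groups was not tested. The markers of B and plasma cells summed to 9.91, 8.75 and 7.27 TPM in GF and 14.6, 12.0 and 13.8 TPM in ConvD livers. Among them was Igj, the immunoglobulin joining chain, the 1 of 7 B and plasma cell markers that was called (3.73-fold, adjusted p = 0.00182). Neither edgeR nor DESeq2 called a marker among 9 of T and natural killer cells, 20 of stellate cells and fibroblasts, 10 of biliary epithelium and 4 of mesothelium, where 1, 1, 3 and 1 had an unadjusted p under 0.05 in edgeR. The biliary sums still lay apart, at 358, 414 and 399 TPM in GF and 547, 475 and 443 TPM in ConvD livers. Those of T and natural killer cells, stellate cells and mesothelium overlapped. Among 21 endothelial markers 1 fell, Lyve1 (log2 change -0.85, adjusted p = 0.0359).

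**Figure D3:**
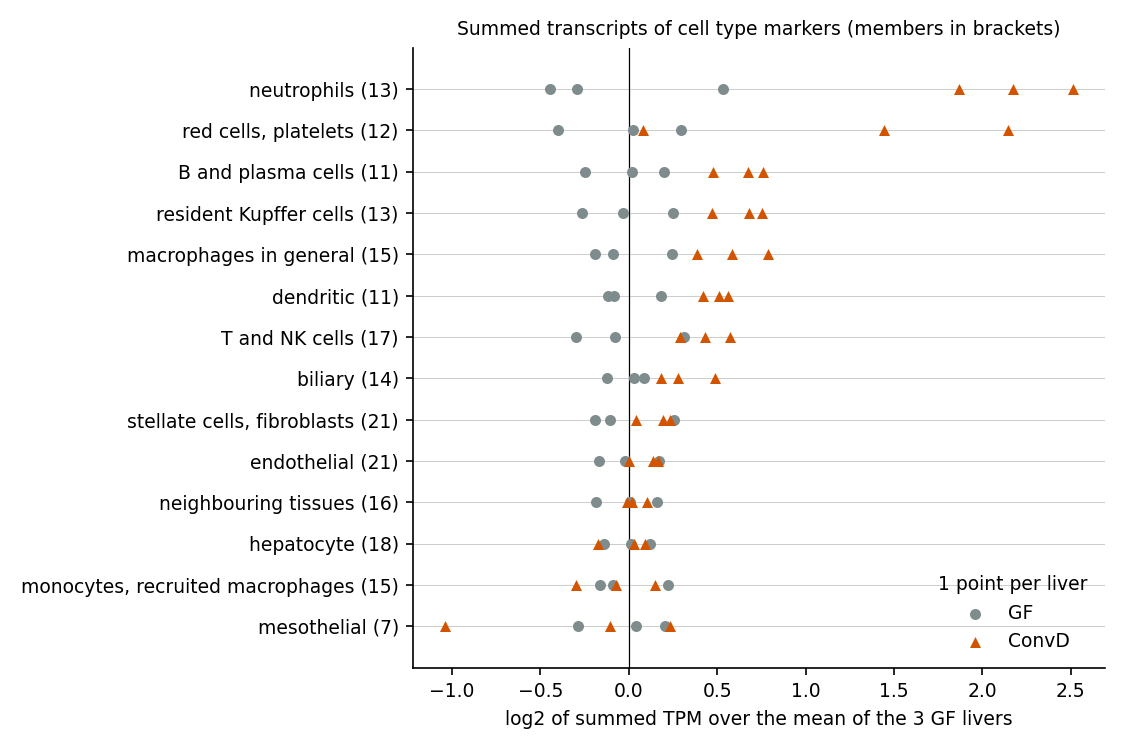
Summed TPM of the markers of each cell type in each liver, as log2 of the ratio to the mean of the 3 GF livers (grey circles GF, orange triangles ConvD, 1 point per liver, number of markers in brackets). Neutrophil sums lie apart at 8.13 to 16.0 TPM in GF and 40.5 to 63.3 TPM in ConvD, macrophage and Kupffer cell sums lie apart by less, and the red cell sum rises in 2 of 3 ConvD livers.

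Heat shock chaperones, most of them cytosolic, were lower in ConvD livers. These proteins fold other proteins, and heat shock factor 1 drives many of their genes from the heat shock element. Of 25 tested heat shock proteins and co-chaperones, 11 fell and 0 rose, and all 25 had a log2 fold change below 0, with a median of -0.53. The length-offset fit also called 11, library totals 8, and DESeq2 16. Leaving out 1 liver gave 6 to 13, with 7 without ConvD replicate 1 and 6 without ConvD replicate 2.

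The paired unit GAANNTTC of the heat shock element was found in 12 of 20 of these promoters (60%) and in 7.17% of all promoters, and in 6 of 10 called members. Windows of 120 bases before the start sites of Dnajb6 (chr5:29735778-29735897, + strand), Dnaja1 (chr4:40722288-40722407, + strand) and Fkbp4 (chr6:128438744-128438863, - strand), the called members with a match before the start site and the smallest adjusted p, carry it in capitals.
Dnajb6: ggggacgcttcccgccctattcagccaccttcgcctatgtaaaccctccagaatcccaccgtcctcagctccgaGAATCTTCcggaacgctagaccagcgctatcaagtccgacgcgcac
Dnaja1: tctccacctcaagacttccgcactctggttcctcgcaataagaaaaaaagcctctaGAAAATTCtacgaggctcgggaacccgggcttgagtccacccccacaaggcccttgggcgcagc
Fkbp4: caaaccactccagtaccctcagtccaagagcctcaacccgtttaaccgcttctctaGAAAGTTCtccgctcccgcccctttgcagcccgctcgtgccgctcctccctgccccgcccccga

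Dnajb6, a co-chaperone that holds aggregation-prone proteins, measured 89.7, 89.8 and 94.4 CPM in GF and 52.1, 59.7 and 62.1 CPM in ConvD livers (-0.66 ± 0.07 SE on the log2 scale, adjusted p = 0.00018). Hspa8, the constitutive HSC70 and the most abundant of the group, fell from 1547, 1371 and 1369 CPM to 821, 941 and 744 CPM (-0.77 ± 0.11 SE on the log2 scale, adjusted p = 0.000687). Dnaja1, an HSC70 partner, went from 318, 267 and 271 CPM to 184, 205 and 204 CPM (log2 change -0.53, adjusted p = 0.00289), and Dnajb4 from 54.3, 52.1 and 67.2 CPM to 26.4, 29.5 and 36.6 CPM (log2 change -0.91, adjusted p = 0.00274). In each of these genes every ConvD liver was below every GF liver. Hspa1b stood at 61.5, 41.2 and 18.4 CPM in GF and 6.75, 8.69 and 9.46 CPM in ConvD livers, groups that lie apart but did not pass (adjusted p = 0.124), and Hsp90aa1 at 265, 179 and 155 CPM against 139, 127 and 137 CPM (adjusted p = 0.127).

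The steps of the secretory pathway are read against the 6.9% of all tested genes called lower. At entry into the endoplasmic reticulum, 1 of 23 tested genes of signal recognition and translocation fell (4.35%), Srprb, a subunit of the signal recognition particle receptor (log2 change -0.53, adjusted p = 0.0104). Of 26 genes of glycan attachment and trimming 3 fell (4 in the length-offset fit, and 5 without GF replicate 3), Magt1 (log2 change -0.52, adjusted p = 0.000749), Alg2 (-0.61) and Man1a (-0.36). Of 22 folding enzymes and chaperones 7 fell and 0 rose (median -0.20). Degradation of misfolded proteins had 8 decreases and 2 increases among 21 genes (median -0.15). Vesicle transport to the Golgi had 8 decreases and 1 increase among 29 (median -0.16). The length-offset fit called 6, 8 and 8 decreases at these last 3 steps, and leaving out 1 liver 5 to 8, 4 to 7 and 6 to 8. For degradation it was 4 without GF replicate 1 or ConvD replicate 1, and 5 without GF replicate 2 or ConvD replicate 2 or 3. The increases numbered 1 in degradation and 0 in transport in the length-offset fit. With library totals the decreases in folding, degradation and transport numbered 6, 3 and 5, and with upper-quartile factors 6, 5 and 7. Degradation had 2 increases in both of these fits.

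Hspa5, the main Hsp70 chaperone of the endoplasmic reticulum, measured 802, 687 and 655 CPM in GF and 463, 510 and 440 CPM in ConvD livers (-0.60 ± 0.10 SE on the log2 scale, adjusted p = 0.00202). Its nucleotide exchange factor gene Hyou1 fell from 145, 122 and 104 CPM to 67.3, 73.6 and 53.8 CPM (-0.93 ± 0.17 SE on the log2 scale, adjusted p = 0.00974). Its co-chaperone gene Dnajb9 fell from 72.0, 53.9 and 56.7 CPM to 25.8, 27.6 and 25.1 CPM (-1.22 ± 0.24 SE on the log2 scale, adjusted p = 0.0201), a call kept in 4 of the 9 fits without 1 liver. In all 3 genes GF replicate 1 was the highest liver and the groups did not overlap. Not every abundant chaperone took part: Hsp90b1 stood at 858, 851 and 781 CPM in GF and 739, 779 and 873 CPM in ConvD livers (adjusted p = 0.708), and the disulfide isomerase gene Pdia3 stood at -0.05 on the log2 scale (adjusted p = 0.771).

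Among genes of degradation, Herpud1, which assembles the retrotranslocation complex, fell from 523, 552 and 533 CPM to 325, 376 and 400 CPM (-0.55 ± 0.10 SE on the log2 scale, adjusted p = 0.00328), and the mannosidase-like genes Edem3 (-0.51) and Edem1 (-0.42) fell too. Derl2 (1.18-fold) and Selk (1.2-fold) were the 2 members that rose. Of the vesicle coat, Sec16a, which marks exit sites, fell from 119, 128 and 113 CPM to 97.3, 87.2 and 86.2 CPM (-0.41 ± 0.08 SE on the log2 scale, adjusted p = 0.00442). The coat genes Sec23b (-0.43), Sec24d (-0.38), Sec24a (-0.40) and Sec31a (-0.41) and the cargo receptor gene Lman1 (-0.32) fell by similar amounts.

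Of 12 sensors and transcription factors of the unfolded protein response, which raises many of these genes when folding is overloaded, 4 fell and 0 rose (median -0.27, with 3 lower in the length-offset fit). The sensor gene Atf6 measured 92.8, 98.6 and 99.4 CPM in GF and 76.9, 71.2 and 75.6 CPM in ConvD livers (-0.38 ± 0.06 SE on the log2 scale, adjusted p = 0.0024). Eif2ak3, the sensor kinase PERK, fell from 21.8, 20.1 and 16.3 CPM to 10.5, 11.3 and 8.50 CPM (-0.94 ± 0.18 SE on the log2 scale, adjusted p = 0.00867), and Creb3l2 fell as well (log2 fold change -0.90). Xbp1 had overlapping groups, at 114, 132 and 127 CPM and 174, 210 and 110 CPM (adjusted p = 0.268). Of 19 targets of ATF4, the transcription factor of the amino acid response, 1 rose, Atf5 (1.54-fold), and 1 fell, Sesn2, and the median was 0.01. Atf4 itself gave 0.10 (adjusted p = 0.684).

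**Figure D4:**
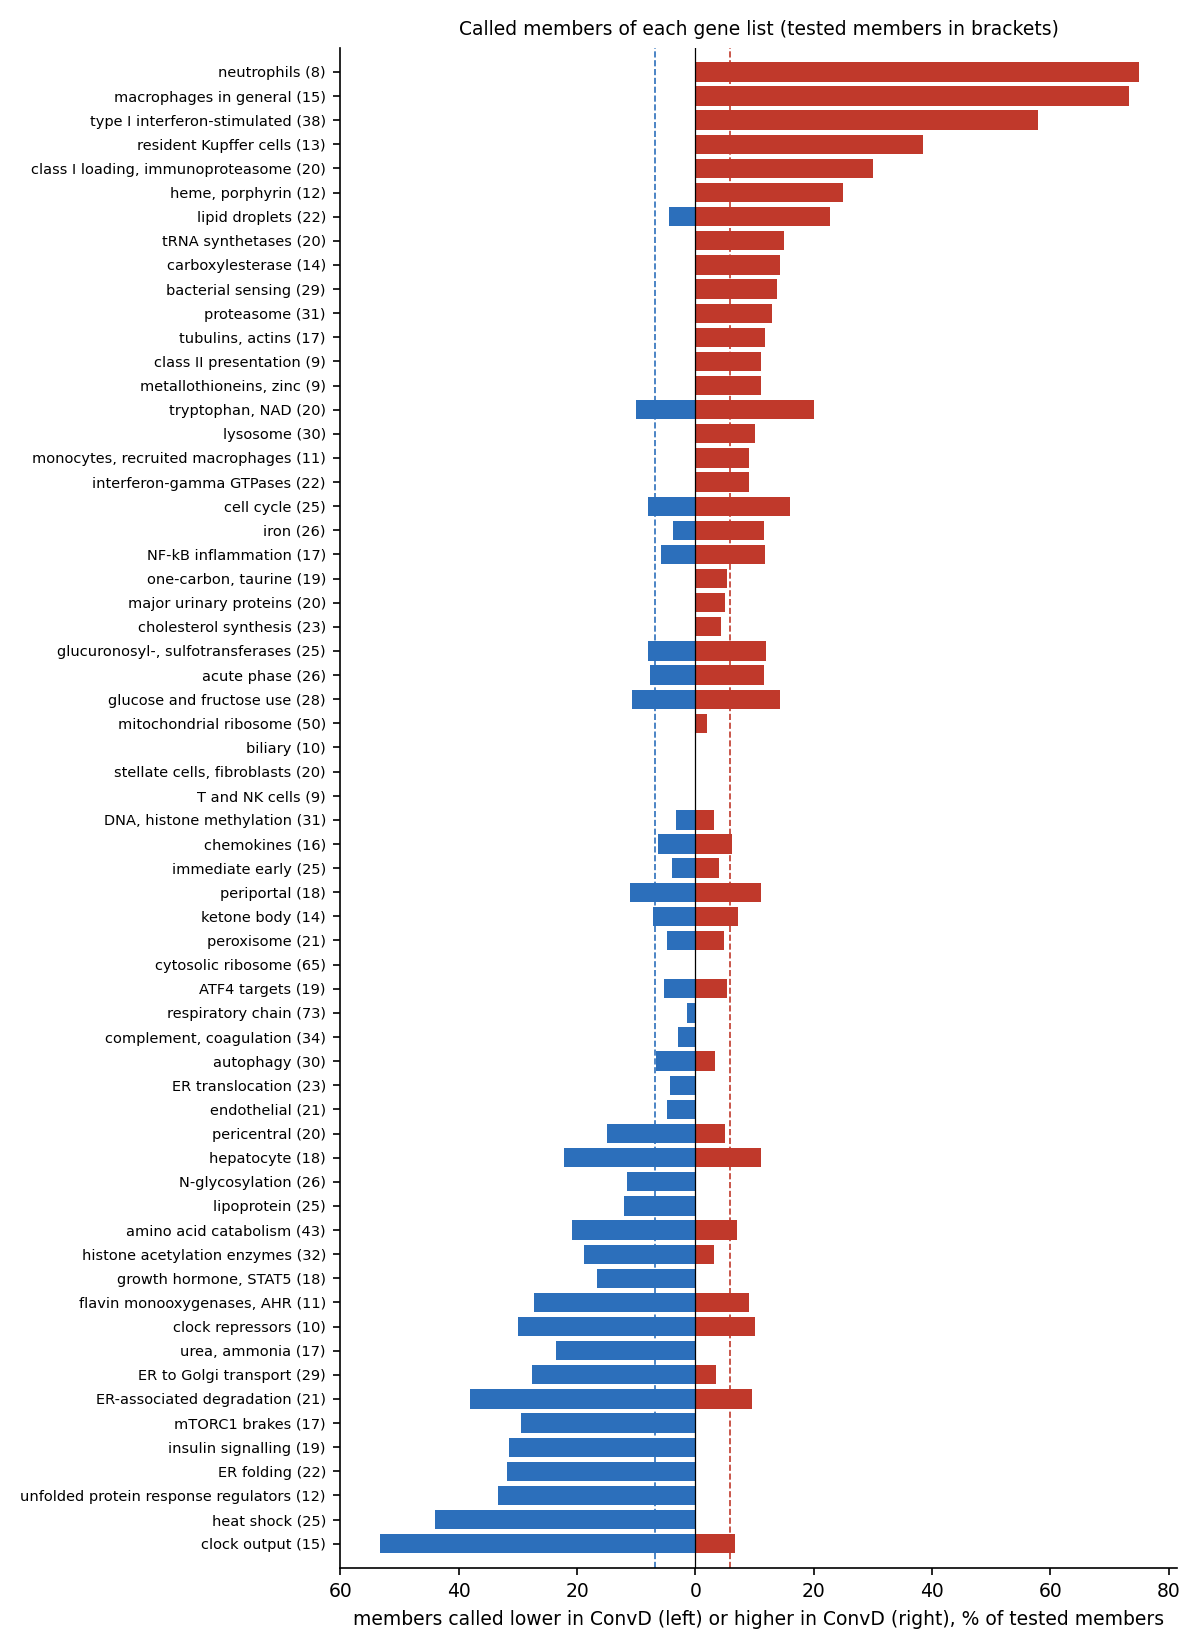
Share of tested members called higher (red, right) or lower (blue, left) in ConvD livers for each of the 62 lists with at least 8 tested members, number tested in brackets; dashed lines mark the shares over all genes, 5.93% higher and 6.9% lower. The lists of neutrophils, macrophages in general and type I interferon-stimulated genes extend furthest to the right, and those of clock output, heat shock and degradation from the endoplasmic reticulum furthest to the left. The calls shown are those with TMM factors, and the decreases depend on the scaling.

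Called clock genes were mostly lower in ConvD livers, with a few higher. The circadian clock is a loop in which CLOCK and BMAL1 drive repressors of the PER and CRY families, and its outputs include the factors DBP, TEF and HLF. Of 15 tested outputs 8 fell and 1 rose (median -0.37), and of 10 repressors 3 fell and 1 rose. Called outputs numbered 6 lower in the length-offset fit and 3 lower with library totals. Fits without 1 liver gave 3 to 10, with 3 without GF replicate 2 or ConvD replicate 1, 4 without ConvD replicate 2 and 5 without GF replicate 1. Cry1 measured 10.3, 7.57 and 9.20 CPM in GF and 2.43, 3.47 and 3.83 CPM in ConvD livers (-1.48 ± 0.17 SE on the log2 scale, adjusted p = 0.00018). Per2 went from 46.8, 40.9 and 36.8 CPM to 23.9, 23.4 and 22.4 CPM (-0.84 ± 0.10 SE on the log2 scale, adjusted p = 0.000353). Bhlhe41, also a repressor, rose 2.79-fold at a low level (0.329 to 1.09 CPM in GF, 1.38 to 2.39 CPM in ConvD, adjusted p = 0.0166). Nr1d1, encoding REV-ERB alpha, stood at 29.3, 32.3 and 18 CPM in GF and 61.1, 54.6 and 47.7 CPM in ConvD livers, which lie apart but did not pass (adjusted p = 0.0631). The core activator genes Arntl (adjusted p = 0.256) and Clock (adjusted p = 0.272) and the output factor gene Dbp (adjusted p = 0.49) did not pass.

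The E-box CACGTG, to which CLOCK and BMAL1 bind, lay in 3 of 13 output promoters (23.1%), in 3 of 7 promoters of called outputs and in 11.9% of all. The windows before the start sites of Lonrf3 (chrX:36328289-36328408, + strand) and Tef (chr15:81802489-81802608, + strand) show it in capitals, 39 and 121 bases before the start.
Lonrf3: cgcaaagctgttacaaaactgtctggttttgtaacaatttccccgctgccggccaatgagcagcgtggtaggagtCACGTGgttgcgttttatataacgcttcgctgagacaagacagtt
Tef: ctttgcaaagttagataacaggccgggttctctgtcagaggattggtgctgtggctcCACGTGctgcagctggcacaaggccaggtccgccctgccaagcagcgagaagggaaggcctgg
Lonrf3, a RING finger gene, fell from 6.47, 4.31 and 6.20 CPM to 1.99, 2.29 and 3.35 CPM (-1.16 ± 0.21 SE on the log2 scale, adjusted p = 0.00328). Tef fell by less, -0.25 on the log2 scale (adjusted p = 0.0396; 0.0689 in the length-offset fit). Por, cytochrome P450 reductase, fell from 577, 645 and 717 CPM to 316, 354 and 316 CPM (-0.97 ± 0.09 SE on the log2 scale, adjusted p = 5.05e-05), and Ccrn4l, the deadenylase Nocturnin, from 75.8, 58.2 and 90.8 CPM to 29.0, 32.9 and 31.5 CPM (log2 change -1.27, adjusted p = 0.00114). The 1 output that rose was the threonyl-tRNA synthetase gene Tars (1.42-fold, adjusted p = 0.00176). It was 1 of 3 of 20 cytosolic tRNA synthetase genes that rose, with Cars (1.59-fold) and Lars (1.24-fold).

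Of 19 insulin signalling genes 6 fell and 0 rose (median -0.32). Foxo1, the transcription factor that insulin shuts out of the nucleus, measured 44.1, 43.7 and 52.7 CPM in GF and 26.2, 29.1 and 28.8 CPM in ConvD livers (-0.74 ± 0.09 SE on the log2 scale, adjusted p = 0.00018). The other 5, Pdpk1, Gsk3b, Akt1, Insr and Igf1, fell by little, with log2 fold changes from -0.35 to -0.29. This group is made of long genes (median 4280 bases), the length-offset fit called 3 lower, and library totals called 1. Without 1 liver the count was 2 to 8, with 2 without GF replicate 1 or ConvD replicate 2 and 3 without ConvD replicate 1. Members with larger differences did not pass. Igfbp1 stood at 154, 294 and 452 CPM in GF and 47.9, 30.2 and 25 CPM in ConvD livers (adjusted p = 0.0637), and Irs2 at 24.9, 19.2 and 23.8 CPM against 7.23, 3.03 and 5.31 CPM (adjusted p = 0.12).

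Restraints on mTORC1, the kinase complex that promotes translation and growth when nutrients are plentiful, fell in 5 of 17 cases and rose in 0, also in the length-offset fit. Leaving out 1 liver gave 1 to 5, with 1 without ConvD replicate 2 and 3 without ConvD replicate 1 or GF replicate 1 or 2. Eif4ebp3, a repressor of cap-dependent translation, measured 75.9, 99.4 and 99.9 CPM in GF and 32.5, 30.9 and 24.8 CPM in ConvD livers (-1.64 ± 0.19 SE on the log2 scale, adjusted p = 0.0018). Ddit4 went from 19.0, 14.9 and 20.9 CPM to 5.63, 5.27 and 4.62 CPM (-1.82 ± 0.36 SE on the log2 scale, adjusted p = 0.0222), and Sesn2 (-0.81), Deptor (-0.42) and Eif4ebp2 (-0.27) fell too. Every ConvD liver was below every GF liver in the first 2 of these genes. Of 30 autophagy genes 2 fell (4 in the length-offset fit), Ulk2 (log2 change -0.51, adjusted p = 0.000714) and Atg9a (-0.36), and 1 rose, the receptor gene Sqstm1 (1.23-fold).

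**Figure D5:**
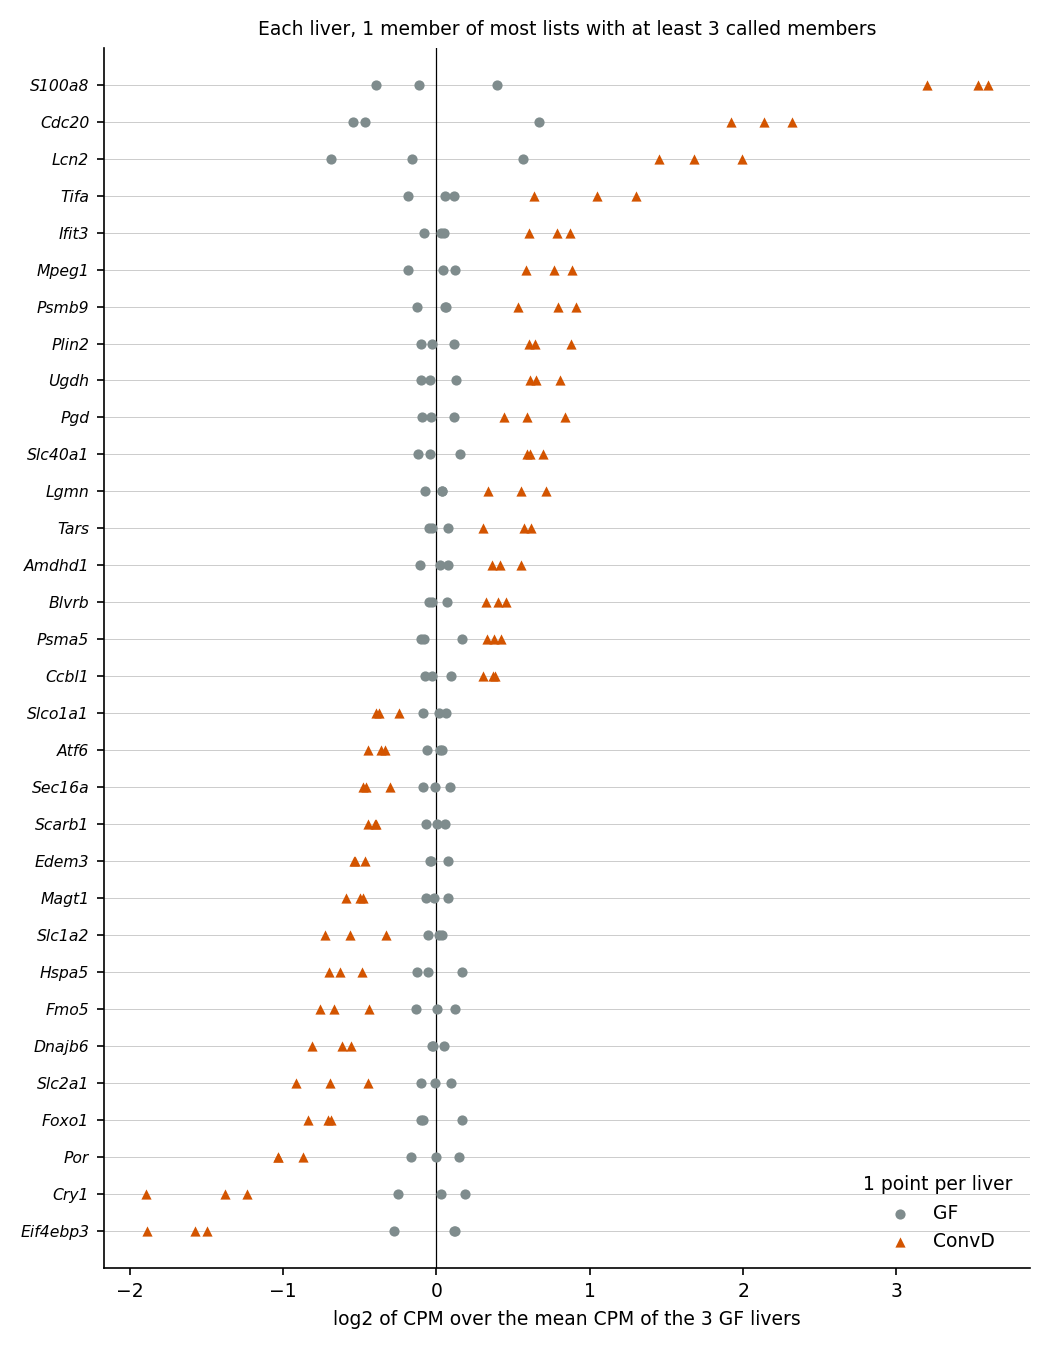
Level of 1 gene for most lists with at least 3 members called in 1 direction, the member with the smallest adjusted p, as log2 of CPM over the mean of the 3 GF livers (grey circles GF, orange triangles ConvD, 1 point per liver). In all genes shown the 3 ConvD livers lie on one side of the 3 GF livers, from S100a8 at the top, with 1.97 to 2.59 CPM against 0.163 to 0.282 CPM, to Eif4ebp3 at the bottom, with 24.8 to 32.5 CPM against 75.9 to 99.9 CPM. The genes were picked by p-value, so this separation follows largely from the choice.

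Of 43 tested genes of amino acid breakdown 9 fell and 3 rose (median -0.12, with 12 lower and 2 higher in the length-offset fit). Library totals gave 4 lower and 4 higher. Leaving out 1 liver gave 4 to 9 lower, with 4 without ConvD replicate 2 and 5 without ConvD replicate 1, and 1 to 4 higher, with 1 without GF replicate 1 or ConvD replicate 1. Tat, an enzyme of tyrosine breakdown, fell from 3095, 2699 and 3902 CPM to 1536, 1301 and 1557 CPM (log2 change -1.14, adjusted p = 0.00153), and Hpd, of the same route, fell by 0.34 on the log2 scale. Other members that fell were Ahcy, at 2637, 2656 and 3081 CPM in GF and 1818, 1797 and 1946 CPM in ConvD livers (log2 change -0.59, adjusted p = 0.00114), Mat1a (-0.57), Dmgdh (-0.40) and Sardh (-0.31). The call of Mat1a was kept in 4 of 9 fits without 1 liver. The 3 members that rose were the histidine enzyme genes Amdhd1 (1.36-fold, adjusted p = 0.0019) and Hal (1.36-fold, adjusted p = 0.039) and the glycine cleavage gene Gldc (1.30-fold). Pdxk, which makes pyridoxal phosphate, the cofactor of aminotransferases, was among the 10 smallest p-values (118, 116 and 106 CPM in GF, 61.7, 69.0 and 69.9 CPM in ConvD, log2 change -0.76, adjusted p = 7.28e-05).

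Of 17 genes of ammonia disposal 4 fell and 0 rose, with 2 lower without ConvD replicate 1 or 2. Cps1, which commits ammonia to the urea cycle, stood at 5066, 6336 and 4945 CPM in GF and 3739, 2960 and 3564 CPM in ConvD livers (-0.67 ± 0.12 SE on the log2 scale, adjusted p = 0.00263). The glutamate transporter gene Slc1a2 (-0.53), the cycle enzyme gene Asl (-0.58) and the mitochondrial carrier gene Slc25a13 (-0.32) also fell. Otc and Ass1, the 2 enzymes between Cps1 and Asl, did not pass (adjusted p = 0.17 and 0.159). Tryptophan breakdown and NAD synthesis had 4 increases and 2 decreases in 20 genes, and 3 and 4 in the length-offset fit. The increases numbered 2 without GF replicate 1 or ConvD replicate 1. The kynurenine aminotransferase genes went opposite ways: Ccbl1 rose 1.28-fold (adjusted p = 0.00685) and Ccbl2 fell (log2 change -0.37, adjusted p = 0.0159). Csad, which makes the taurine precursor hypotaurine, rose from 55.5, 62.4 and 59.7 CPM to 176, 133 and 137 CPM (1.33 ± 0.12 SE on the log2 scale, adjusted p = 0.000112), the 1 call among 19 genes of one-carbon and taurine metabolism.

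Of 22 droplet and triglyceride genes 5 rose and 1 fell. The length-offset fit called 4 higher. Fits without 1 liver gave 2 to 6 higher, with 2 without GF replicate 1 or ConvD replicate 1, and 3 without GF replicate 2 or 3, ConvD replicate 2 or 1 of the livers given short-chain fatty acids. Plin2, which coats droplets, stood at 236, 273 and 248 CPM in GF and 464, 394 and 384 CPM in ConvD livers (0.71 ± 0.10 SE on the log2 scale, adjusted p = 0.000726), and Pnpla3 at 0.163, 0.198 and 0.329 CPM against 3.01, 3.08 and 0.744 CPM (3.27 ± 0.55 SE on the log2 scale, adjusted p = 0.0039), with ConvD replicate 3 well below the other two. Fitm1 (1.66-fold), Plin3 (1.37-fold) and Gpam (1.38-fold) rose, and Dgat2, which completes triglycerides, fell (log2 change -0.50, adjusted p = 0.000854). Pparg, a nuclear receptor that promotes lipid storage, rose 2.50-fold (5.00, 7.13 and 9.44 CPM in GF, 18.6, 24.3 and 11.3 CPM in ConvD, adjusted p = 0.0339), a call kept in 2 of 9 fits without 1 liver. Of 23 cholesterol synthesis genes 1 rose, Sc5d (1.46-fold, adjusted p = 0.0017). Of 25 lipoprotein genes 3 fell, the high-density lipoprotein genes Scarb1 (-0.41), Lcat (-0.39) and Abca1 (-0.42), of which Abca1 did not pass in the length-offset fit (adjusted p = 0.0668).

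Sugar use had 4 increases and 3 decreases in 28 genes, and 8 increases without ConvD replicate 3. The pentose phosphate genes Pgd (1.55-fold, adjusted p = 0.00155) and Tkt (1.31-fold) and the fructose kinase gene Khk (1.38-fold) rose, and the glucose transporter gene Slc2a1 (-0.68) and Pfkfb1 (-0.64), which sets the level of a glycolytic activator, fell. Ugdh, which makes the sugar donor for glucuronidation, rose from 125, 141 and 120 CPM to 197, 203 and 226 CPM (0.69 ± 0.08 SE on the log2 scale, adjusted p = 0.000257), while of 25 tested genes of glucuronidation and sulfation 3 rose and 2 fell (3 fell in the length-offset fit). Ces2e (1.79-fold, adjusted p = 0.00018) and Ces2a (1.32-fold) were the 2 called of 14 carboxylesterases. Fmo5, a flavin monooxygenase, fell from 1117, 1015 and 1211 CPM to 701, 658 and 822 CPM (log2 change -0.62, adjusted p = 0.00182), and Ahr, the aryl hydrocarbon receptor, fell (log2 change -0.63, adjusted p = 0.0181). Of 12 genes of heme and porphyrin metabolism 3 rose, among them Blvrb (1.31-fold) and Blvra (1.30-fold). The count was 2 in the length-offset fit and 1 without GF replicate 2 or 3 or ConvD replicate 2. In iron handling Tfrc, the transferrin receptor, fell from 43.3, 32.8 and 55.7 CPM to 16.8, 26.2 and 14.9 CPM (log2 change -1.19, adjusted p = 0.0338), while Hamp, encoding hepcidin, gave 0.06 (adjusted p = 0.908). Slc30a10, a manganese exporter, rose 2.04-fold (adjusted p = 0.00018).

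Large sets of ribosomal and respiratory chain genes gave few calls. Of 65 cytosolic ribosomal protein genes, edgeR and DESeq2 each called 0, and 0 had an unadjusted p under 0.05 in edgeR. Of 73 respiratory chain and ATP synthase genes 1 fell, Atp5k, and of 50 mitochondrial ribosomal protein genes 1 rose, Mrpl22, which was not called in the length-offset fit (adjusted p = 0.0873; their medians were 0.01, -0.04 and 0.03). Histone acetylation enzymes fell in 6 and rose in 1 of 32 cases, among the decreases the acetyltransferase genes Crebbp (-0.52) and Ep300 (-0.36). The median of this list was 0.01, with 16 of the 32 above 0, and library totals called 3 lower and 3 higher. The length-offset fit called 4 lower, without Ep300 (adjusted p = 0.0867). The number lower was 3 without GF replicate 1 or ConvD replicate 1, and 2 without ConvD replicate 2. In the list of DNA and histone methylation Dnmt3a rose 1.38-fold (adjusted p = 0.0121) and Mll3 fell (log2 fold change -0.41; adjusted p = 0.264 in the length-offset fit). Of 25 cell cycle genes 4 rose and 2 fell. The increases numbered 2 without GF replicate 1 or 2 or ConvD replicate 1, and 1 without ConvD replicate 2. Cdc20, an activator of the anaphase-promoting complex, measured 0.326, 0.148 and 0.141 CPM in GF and 0.776, 1.03 and 0.903 CPM in ConvD livers (adjusted p = 0.00724), Mcm5 rose 1.70-fold, and the cyclin gene Ccne2 fell (log2 change -1.35, adjusted p = 0.00685).

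Of 20 genes of pericentral cells, which lie round the central vein and respond in part to Wnt, 3 fell and 1 rose (median 0.00, with 4 lower in the length-offset fit). The Wnt coreceptor gene Lgr5 fell from 8.64, 9.15 and 6.15 CPM to 4.61, 4.44 and 5.53 CPM (log2 change -0.71, adjusted p = 0.0108), and Cyp2e1 from 9273, 10581 and 9427 CPM to 6997, 7002 and 8108 CPM (log2 change -0.41, adjusted p = 0.0164). The pericentral glutamine synthetase gene Glul had overlapping groups (adjusted p = 0.658). Of 18 periportal genes 2 fell, Pck1 and Cps1, and 2 rose, Ctsc and Hal (median -0.14, with 1 higher in the length-offset fit).

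Genes outside these groups gave some of the smallest p-values. The uncharacterised transcript 9130409I23Rik stood at 8.86, 7.22 and 6.81 CPM in GF and 23.5, 23.6 and 28.9 CPM in ConvD livers (1.73 ± 0.12 SE on the log2 scale, adjusted p = 1.55e-05). Rhou, a small GTPase, rose from 47.0, 49.2 and 46.7 CPM to 86.9, 79.7 and 79.9 CPM (0.79 ± 0.06 SE on the log2 scale, adjusted p = 3.2e-05). Homer2, a scaffold protein, fell from 51.3, 52.1 and 58.5 CPM to 28.7, 28.4 and 29.6 CPM (-0.90 ± 0.07 SE on the log2 scale, adjusted p = 2.72e-05). In each of the 3, which were picked by p-value, the gap between the groups was larger than the range within either group. S100a10, the annexin A2 partner (1.97-fold), the carbonic anhydrase gene Car14 (1.99-fold) and the coenzyme Q gene Adck3 (1.88-fold) rose, and Trp53inp2, which acts in autophagy, fell from 246, 248 and 257 CPM to 134, 136 and 155 CPM (log2 change -0.82, adjusted p = 4.03e-05).

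Among the next largest changes after the first 10, increases of 2.50- to 2.72-fold included the exchange factor gene Tiam2 (4.35, 4.35 and 3.29 CPM in GF, 12.2, 8.93 and 11.5 CPM in ConvD, adjusted p = 0.00018), Raet1e, a stress ligand of natural killer cells, Gas7, Fam198a, the atypical kinase gene Mapk15, the galectin gene Lgals1, Zc3h12d and Inhbe, an activin subunit of the liver (adjusted p = 0.0497, kept in 2 of 9 fits without 1 liver). Decreases included the steroid hydroxylase gene Cyp17a1 (log2 change -1.30, adjusted p = 0.0434), the thioesterase gene Acot3 (-1.37), Rnd1 (-1.23), E130012A19Rik (-1.22) and the channel-like gene Tmc7 (-1.17). Of the 202 genes named by rule, 121 were called in every fit without 1 liver, and none changed sign in any of the alternatives run. Among called genes printed above, some were kept in at most 4 of these 9 fits. Their largest adjusted p came without ConvD replicate 2 for Acot3, Atp5k, Cxcl14, Cyp17a1, Ddit4, Dnajb9, Inhbe, Mat1a, Nod1 and Sirpa, without GF replicate 2 for C1qb, Derl2, Fitm1, Gbp4 and Pparg, without ConvD replicate 3 for Blvra, Hal, Igf1 and Mrpl22, without ConvD replicate 1 for Lyve1, Plin3 and Tfrc, and without GF replicate 1 for Gpam and Tef.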

How the data were processed

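Libraries were prepared from Qiagen-purified RNA with the TruSeq Stranded mRNA kit, per the labels' protocols. Bowtie2, RSEM (version 1.2.23) and mm9 appear in the authors' list of tools and builds, per the submitters' processing notes. No source used here gives the strand setting, and overlapping antisense genes may share reads. Values within families of near-identical genes (Mup, Cyp2c, Cyp3a, Gstm, Acot, hemoglobin, histocompatibility genes) are uncertain. Each deposited table gives estimated counts per gene (RSEM expected counts, not normalised, 46.7% of those above 0 not whole at a tolerance of 0.001, since reads that match several genes are divided), lengths and TPM. TPM, per the file headers, is scaled by the authors for length and depth.

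Expected counts were rounded and fitted with edgeR 4.0.16 in R 4.3.3: filterByExpr (minimum count 10), TMM factors (0.935 to 1.06), 1 term per group, all 9 livers, robust quasi-likelihood F test with 6 residual degrees of freedom, Benjamini-Hochberg adjustment over 12037 genes. The biological coefficient of variation was 10.6%. CPM values use TMM-scaled totals. SE is that of the log2 fold change. DESeq2 1.42.0, other scalings, filters, blocks, a length-trend offset and fits without 1 liver were alternatives. The fits were tested on simulated data. Chi-square per degree of freedom between libraries of a group was 14.5 to 51.2, so no pair agreed within sampling noise.

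The members and the 68 lists (1562 entries, 1553 matched to the tables by symbol, synonym or accession through a RefSeq table of GRCm38.p6) were chosen with earlier results of these data known. Genes named are up to 4 called members per list with the smallest adjusted p, ranks 11 to 20 by size in each direction (mean count at least 50, groups apart), the 10 largest TPM gains and losses, the 10 smallest p-values, and other list members. A few genes that the rule selects are not reported here.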

Additional observations from a re-analysis of the deposited data

How the results depend on the processing

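Decreases depended on scaling more than increases: 830 genes were lower with TMM, 543 with upper-quartile factors and 391 with library totals. Calls of at least 2-fold numbered 160, and 95 with a minimum count of 50, a fit that tests fewer genes. DESeq2 called 1539 genes and the length-trend offset 1337. In CPM the share held by lower genes changed by -3.01 percentage points, against -2.02 in TPM.

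Leaving out 1 liver gave 849 to 1466 calls, 391 to 676 higher, 436 to 790 lower and 107 to 184 of at least 2-fold. The share of TPM held by higher genes then changed by 1.96 to 2.40 points and that held by lower genes by -2.24 to -1.69. Counts moved by over 1.5 times without GF replicate 1 (918 called, 391 higher, 527 lower), ConvD replicate 1 (936 called, 436 lower) and ConvD replicate 2 (849 called, 411 higher, 438 lower). Fewer samples were fitted, and the cause was not further tested.

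Deviations from the group mean correlated at 0.03, -0.07 and 0.02 between GF and ConvD livers with the same replicate number. Between livers with different numbers the correlations ran from -0.13 to 0.11. Over all genes, such values cannot exclude a factor shared by number that touches some genes. A replicate block over the 6 livers called 783 genes (360 higher, 423 lower) and over 9 livers 1514. Without the block, the 6 livers alone gave 1150.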
